A study of Mus musculus with 6 samples.

Results

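The connexin genes examined here were Gja1, Gja4, Gja5, Gjc1, Gjb2, Gjb5 and Gjb6, 7 of the 21938 protein-coding genes of the mouse annotation. Chromatin accessibility was measured by ATAC-seq, in which the Tn5 transposase cuts and tags DNA where it is open, in primary muscle cells of the mouse oviduct. There were 3 libraries from WT mice, which per the study's methods were littermates with floxed Pbrm1 and no Cre (Pbrm1 fl/fl), and 3 from Pbrm1 cKO mice, in which Cre expressed from the progesterone receptor gene deletes Pbrm1 (Pbrm1 fl/fl with PR IRES-cre). All mice were mated females of 8 to 12 weeks taken on day 2 of pregnancy, and the cells of digested oviducts were filtered and kept in culture medium for a few hours before the assay. Pbrm1 encodes a subunit of SWI/SNF, a complex that moves and evicts nucleosomes, and the comparison of the genotypes asks how its loss changes open chromatin in these cells.

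Connexins are membrane proteins that assemble into hexameric channels, and the channels of neighbouring cells dock to form a gap junction through which ions and small metabolites pass. In smooth muscle, gap junctions couple cells electrically, so that contraction spreads through the tissue. Gja1 encodes connexin 43, the main connexin of most smooth muscle. Gjc1 encodes connexin 45, found in the conduction system of the heart and in smooth muscle. Gja4 and Gja5 encode connexins 37 and 40, best known from endothelium and the vessel wall. Gjb2 and Gjb6 encode connexins 26 and 30, and Gjb5 a relative of them. These are connexins of epithelia.

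The regions of each gene were found by position. The authors' lists of reproducible peaks, 1 for WT and 1 for Pbrm1 cKO, were merged into 66679 regions, and every region that overlapped the body of a connexin gene plus 20 kb on each side was taken, which gave 20 regions. They lay in 5 of the 7 windows: 5 at Gja5 (chromosome 3), 5 at Gja4 and 5 at Gjb5 (both chromosome 4), 3 at Gja1 (chromosome 10) and 2 at Gjc1 (chromosome 11). The overlapping windows of Gjb2 and Gjb6 on chromosome 14 held 0 regions. Over all protein-coding genes the median window held 3 regions, and 4179 windows (19.0%) held none. Coordinates are on GRCm38 and are counted from 1.

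Windows were shared with other genes. The window of Gja5 also held Gpr89, for example, and that of Gjc1 held Adam11, Eftud2 and Higd1b. Only the window of Gja1 held no other protein-coding gene. A region in a window is therefore placed near a connexin gene by position alone. Of the 20 regions, 16 are described one by one, and the other 4, in the windows of Gja4 and Gjb5, enter the counts only.

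**Figure D1:**
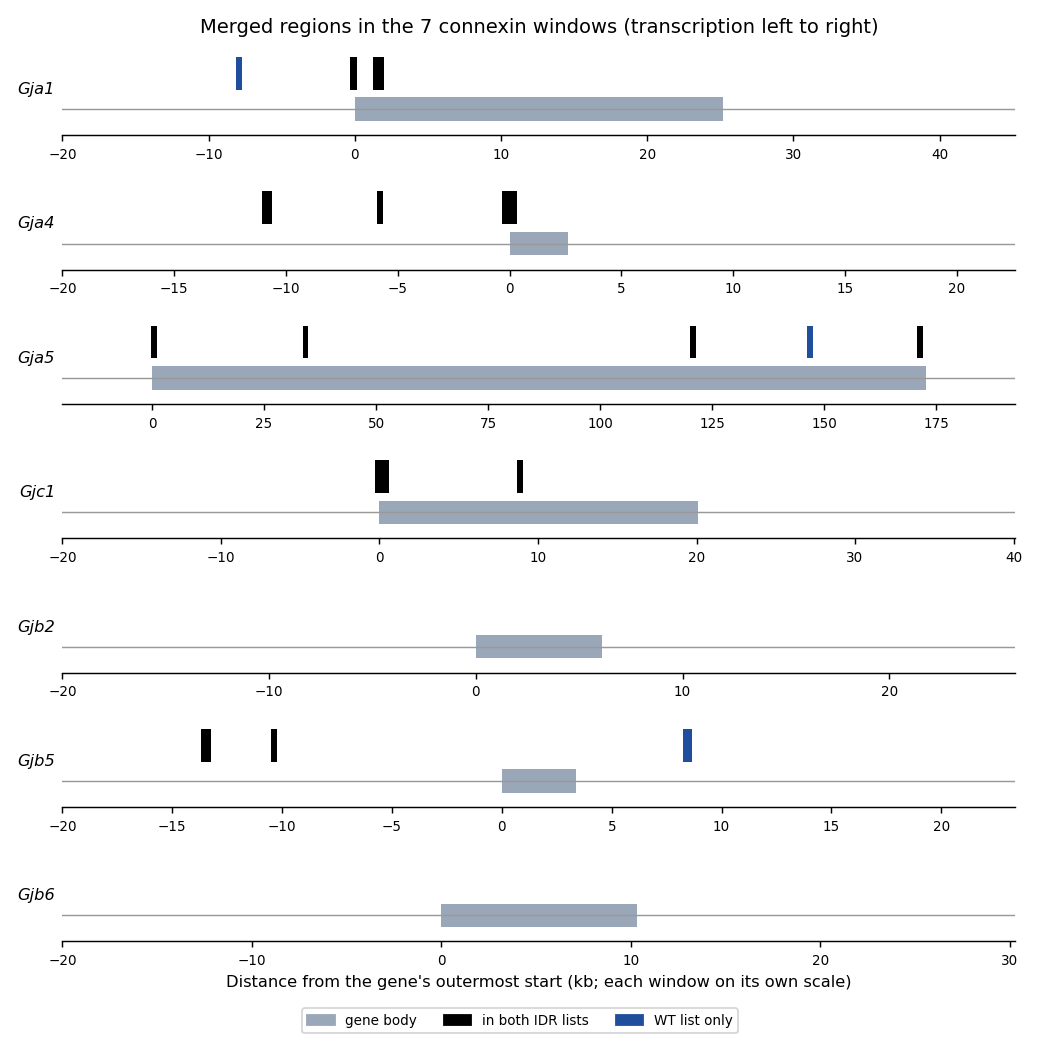
The 16 merged regions described one by one in the 7 connexin windows, drawn by distance in kb from the outermost transcription start of each gene, with transcription from left to right and each window on its own scale. Grey bars are gene bodies, black marks are regions found in both lists of reproducible peaks and blue marks in the WT list only; Gjb2 and Gjb6 have no mark.

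The sequences below are a selection of regions and starts and are not the best-ranked regions as a set. The best-ranked region, shared by Gja5 and Gpr89, is not printed, and the printed region near Gjb5 stood last of the 20 by mean rank. The first is centred on the summit of the Gja1 promoter region (chr10:56377054-56377353, plus strand), with the first transcription start at 56377330. Gja4 and Gjb2 are the 250 bases before the RefSeq start on the gene's own strand, chr4:127314040-127314289 for Gja4, which had a region, and chr14:57104703-57104952 for Gjb2, which had none. The other 3 are 300 bases on the plus strand around summits: the best-ranked region of Gjc1, in an intron (chr11:102810687-102810986), the region in the intron of Gja5 whose WT libraries all ranked above the Pbrm1 cKO libraries (chr3:97025224-97025523), and the region near Gjb5 with the smallest p of the 20 (chr4:127349720-127350019, which runs past the end of the region). Capitals mark matches on either strand to the searched motifs, which were the AP-1 motif TGANTCA, the Sp1 motif GGGCGG, the motif AGATAA of the GATA factors, the TEAD motif GGAATG and the CArG box.
Gja1 promoter summit: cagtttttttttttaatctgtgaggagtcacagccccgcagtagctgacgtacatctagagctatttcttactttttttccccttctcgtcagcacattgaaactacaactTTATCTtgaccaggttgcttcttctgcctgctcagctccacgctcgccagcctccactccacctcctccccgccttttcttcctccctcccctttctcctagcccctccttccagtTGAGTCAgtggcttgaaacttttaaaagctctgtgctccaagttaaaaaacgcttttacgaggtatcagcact
Gja4 upstream of start: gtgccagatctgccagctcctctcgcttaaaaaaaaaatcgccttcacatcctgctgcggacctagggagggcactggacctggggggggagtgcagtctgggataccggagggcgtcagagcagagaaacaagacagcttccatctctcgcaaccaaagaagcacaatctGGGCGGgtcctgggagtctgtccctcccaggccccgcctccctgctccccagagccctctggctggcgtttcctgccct
Gjb2 upstream of start: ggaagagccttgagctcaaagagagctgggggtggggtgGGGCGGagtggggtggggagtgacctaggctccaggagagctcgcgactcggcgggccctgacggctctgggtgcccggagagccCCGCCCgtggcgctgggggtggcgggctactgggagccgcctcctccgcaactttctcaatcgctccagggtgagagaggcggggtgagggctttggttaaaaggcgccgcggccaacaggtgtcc
Gjc1 intron summit: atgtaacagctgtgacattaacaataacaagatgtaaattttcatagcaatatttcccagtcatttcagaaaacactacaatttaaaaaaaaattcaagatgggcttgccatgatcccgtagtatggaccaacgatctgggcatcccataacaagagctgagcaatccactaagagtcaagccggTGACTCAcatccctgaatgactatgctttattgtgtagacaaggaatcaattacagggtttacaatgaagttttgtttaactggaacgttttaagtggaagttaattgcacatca
Gja5 intron summit: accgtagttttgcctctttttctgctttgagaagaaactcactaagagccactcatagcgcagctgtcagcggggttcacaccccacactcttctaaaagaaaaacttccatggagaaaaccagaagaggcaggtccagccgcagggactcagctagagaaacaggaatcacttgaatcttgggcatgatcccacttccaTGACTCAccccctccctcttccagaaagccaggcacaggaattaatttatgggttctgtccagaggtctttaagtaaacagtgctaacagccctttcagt
Gjb5 downstream summit: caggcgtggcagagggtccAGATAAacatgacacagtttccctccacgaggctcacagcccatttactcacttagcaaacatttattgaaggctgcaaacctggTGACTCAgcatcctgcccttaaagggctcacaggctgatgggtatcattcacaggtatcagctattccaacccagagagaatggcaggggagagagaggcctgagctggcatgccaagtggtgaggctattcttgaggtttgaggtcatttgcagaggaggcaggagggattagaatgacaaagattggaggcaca

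The AP-1 motif, bound by Fos and Jun dimers, was found in 8 of the 20 connexin regions (36.6% of all merged regions hold it in 300 bases around the summit). It stood in the Gja1 promoter, the Gjc1 intron, the Gja5 intron and the region downstream of Gjb5, as printed above. GATA motifs were found in 4 of 20 regions (12.9% of all), TEAD motifs in 5 (20.7% of all) and Sp1 motifs in 2 (22.7% of all). The CArG box, the site of serum response factor at many contractile genes, was found in 0 of 20, against 1.70% of all merged regions. The connexin regions had a median GC content of 51.8% and 6 CpG, against 50% and 5 over all merged regions.

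RefSeq promoter sequences, on the assembly of the same build, matched 6 of the 7 genes, all but Gjc1. The 300 bases from 250 before to 50 after the start of Gjb2 had 70% GC and 27 CpG, and 84.5% of the 32851 promoters in the table had fewer CpG. The corresponding bases of Gja4 had 62% GC and 16 CpG, and those of Gja1 47.7% GC and 8 CpG. The median over all promoters was 52.7% GC and 7 CpG. The most CpG-rich promoter of the 6 was thus that of Gjb2, which had no merged region. Sp1 motifs were present in the promoters of Gja4, Gja5 and Gjb2 (35.7% of all promoters hold one). The table's start of Gja5 is that of its shorter transcript, which had no merged region, and the open region at the other Gja5 start held no Sp1 motif around its summit. An AP-1 motif stood in the promoter of Gja1 only (7.81% of all).

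Facts of the whole series bear on the values that follow. The list of each library was limited to 300000 entries and only that of Pbrm1 cKO 3 was shorter, so its length is no measure of depth. The number of sequence tags over each summit was recovered from the deposited fold and p, and at the connexin regions it was 9 to 96 (median 31). The library WT 3 stood apart, with a median of 19.5 tags at the connexin regions, against 30.5 to 35 in the other 5. Promoter regions were present at 5 of 5 smooth muscle markers, including Acta2 and Myh11, and at 4 of 4 endothelial markers, 3 of 4 markers of fibroblasts and pericytes, 1 of 4 immune markers (Cd68) and 1 of 6 epithelial markers (Foxj1, at a mean rank of 4389, the best of all markers). In bulk samples, fewer cells of a type and less accessibility per cell cannot be told apart. Mean ranks ran from 18570 to 46897 for the smooth muscle markers and from 21012 to 47707 for the endothelial ones, and the smallest adjusted p at any marker promoter was 0.196 (limma). The part of other cell types in the connexin values was not tested. The promoter region of Pbrm1 itself, at chr14:31018762-31019679, was called in both lists and ranked 19394.5, 10525.5 and 19166 in WT and 12415, 12332 and 22222 in Pbrm1 cKO. Peak lists do not show whether exons were deleted, so the deletion was not checked here.

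Regions were compared by rank. In each library all 66679 regions were ordered by the highest −log10 p that any overlapping entry had, rank 1 being the strongest and tied regions sharing a mean rank. Regions without an entry in a library were put last and also shared a mean rank. The rank score is log2(66679/rank), so it is higher for stronger regions, and differences in it are given as Pbrm1 cKO minus WT with the standard error (SE) of the limma fit over all regions. Adjusted p-values are Benjamini-Hochberg values over all regions. A rank gives the standing of a region within its own library, and a change common to all regions does not appear in it.

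No connexin region passed the test between genotypes. Of the 20 regions 0 had an adjusted p below 0.05, against 45 of all 66679 regions (0.0675%), and the smallest adjusted p among the 20 was 0.139. At an unadjusted p below 0.05 there was 1 connexin region, against 15.9% of all regions. The difference was above 0 at 7 regions and below 0 at 13, where 33366 and 33313 of all regions were. The median was −0.08 against 0.00055 over all regions. The regions called in the WT list only were among the 13, and entry through that list favours better ranks in WT. This split is thus not independent of the lists. In 3 connexin regions all WT libraries ranked above all Pbrm1 cKO libraries (10.9% of all regions do) and in 0 the reverse held (10.6% of all). Among these 3 were the region downstream of Gjb5 and a Gja5 exon region, both called in the WT list only. They entered the merged set through the group where they ranked better. The count is thus not independent of the lists. By mean rank 13 of the 20 regions stood above the middle of the list, where 31064 of all 66679 did, and 0 of 20 stood in the top 10%, where 6186 of all did. The connexin regions had a median mean rank of 30515 against 35517 over all regions.

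**Figure D2:**
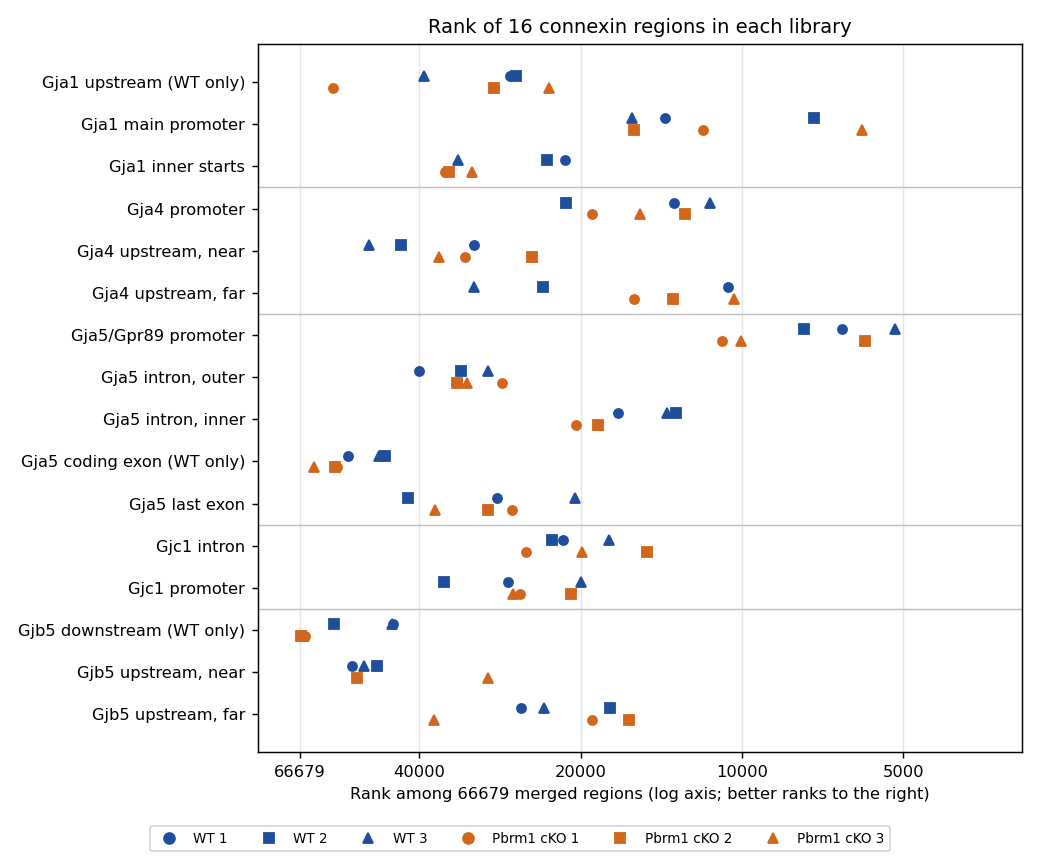
Rank of each of 16 connexin regions among 66679 merged regions in each of 6 libraries, on a log axis with better ranks to the right, grouped by the window they lie in. Blue marks are the 3 WT and orange marks the 3 Pbrm1 cKO libraries; the Gja5/Gpr89 promoter ranks best by median (5189 to 10908.5) and the region downstream of Gjb5 stands last in Pbrm1 cKO (65173 to 66448.5).

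Gja1, the main gap junction gene of smooth muscle, was open at its promoter in every library. The region at chr10:56376986-56377502 covered the first exon (5′ UTR) and the bases before it, and was called in both lists, with pooled fold enrichments over local background of 9.90 in WT and 11.2 in Pbrm1 cKO. It ranked 13899, 7326 and 16010 in WT and 11845.5, 15877.5 and 5980.5 in Pbrm1 cKO, so the best library was a Pbrm1 cKO one and the groups overlapped. The summit held 67, 78 and 34 tags in WT and 79, 58 and 96 in Pbrm1 cKO. The rank score was 2.50 ± 0.60 in WT and 2.68 ± 0.72 in Pbrm1 cKO (SD, n = 3 each), a difference of 0.18 (SE 0.42, 95% interval −0.70 to 1.05, limma adjusted p = 0.881).

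A second region of Gja1, at chr10:56378569-56379318, lay over first exons of transcripts with starts further inside the gene. It was weaker, with ranks of 21416.5, 23107 and 33838 in WT and 35869, 35134 and 31888 in Pbrm1 cKO. WT 1 and WT 2 stood above all Pbrm1 cKO libraries, and WT 3 lay among them. The rank score was 1.38 ± 0.35 in WT and 0.96 ± 0.09 in Pbrm1 cKO (SD, n = 3 each), a difference of −0.42 (SE 0.31, limma adjusted p = 0.547). The values of the 2 promoter regions thus lay on opposite sides of 0, but whether these differences differ from each other was not tested.

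The third Gja1 region, intergenic and 7748 bp upstream of the first start at chr10:56369217-56369582, was called in the WT list only. WT-only regions made up 13.4% of all merged regions, and 3 of the 20 connexin regions were of this kind. Another 1 of the 20 was called in the Pbrm1 cKO list only (17.4% of all merged regions were). The libraries did not separate as the lists did. The region had an entry in all 6 libraries, with ranks of 27105.5, 26374.5 and 39244.5 in WT and 57840.5, 28976 and 22891 in Pbrm1 cKO. The best rank was that of Pbrm1 cKO 3 and the worst that of Pbrm1 cKO 1, and the difference was −0.15 (SE 0.36, limma adjusted p = 0.883).

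Gjc1, the other connexin gene of smooth muscle, had a promoter region of lower standing. It lay at chr11:102819089-102819997 over the first exon (5′ UTR) and ranked 27281.5, 35900.5 and 19983 in WT and 25923, 20820.5 and 26753 in Pbrm1 cKO. WT 3 was the best and WT 2 the worst of the 6 libraries. The difference was 0.15 (SE 0.33, limma adjusted p = 0.876). Starts of shorter Gjc1 transcripts at 102804901 and 102805788 had no entry in any library within 1 kb.

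The intron region of Gjc1, at chr11:102810676-102811038, ranked better than its promoter in 6 of 6 libraries. Its ranks were 21596.5, 22598.5 and 17687.5 in WT and 25335, 15028.5 and 19897 in Pbrm1 cKO. Its summit, printed above with its AP-1 match, held 20 to 30 tags in WT and 29 to 35 in Pbrm1 cKO. The groups overlapped, and the difference was 0.06 (SE 0.33, 95% interval −0.63 to 0.75, limma adjusted p = 0.952).

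Gja4, the gene of connexin 37, had a promoter region at chr4:127313713-127314405 that covered its first exon (5′ UTR). It ranked 13373, 21267.5 and 11467.5 in WT and 19076.5, 12786.5 and 15481 in Pbrm1 cKO. The 3 Pbrm1 cKO values lay within the range of the 3 WT values. The difference was −0.07 (SE 0.35, limma adjusted p = 0.948), and the pooled fold enrichment was 16.7 in WT and 19.2 in Pbrm1 cKO, higher than at the Gja1 promoter. At Gja4 fewer tags stood over a lower local background, with 28 to 43 in WT and 38 to 42 in Pbrm1 cKO.

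Upstream of Gja4, 2 intergenic regions had the smallest p-values of the connexin regions with a difference above 0. The first, 5696 bp from the Gja4 start at chr4:127319735-127319950, ranked 31544.5, 43190 and 49633.5 in WT and 32795, 24678.5 and 36652.5 in Pbrm1 cKO, a difference of 0.40 (SE 0.30, limma adjusted p = 0.55). The other, 10638 bp from the Gja4 start at chr4:127324677-127325138, ranked 10625.5, 23451.5 and 31597.5 in WT and 15890.5, 13435.5 and 10334 in Pbrm1 cKO, a difference of 0.61 (SE 0.39, limma adjusted p = 0.472). In both regions WT 1 ranked among the Pbrm1 cKO libraries, and the worst rank was that of WT 3, the library with the fewest tags. Left-out libraries moved the latter difference from 0.28 (without WT 3) to 1.06 (without WT 1). The start of another gene lay nearer to this further region than that of Gja4.

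Gja5, the gene of connexin 40, had the best-ranked region of all connexin windows, at chr3:96904665-96905624. The region covers the first exon (5′ UTR) of the longer Gja5 transcript and also the first exon of Gpr89, which is transcribed the other way. It cannot be given to Gja5 alone. The 300 bases around its summit (chr3:96905241-96905540) did not include the Gja5 start at 96904693. It ranked 6507.5, 7667 and 5189 in WT and 10908.5, 5892 and 10061 in Pbrm1 cKO. Pbrm1 cKO 2 lay among the WT libraries and the other 2 below them. The rank score was 3.39 ± 0.28 in WT and 2.95 ± 0.48 in Pbrm1 cKO (SD, n = 3 each), a difference of −0.44 (SE 0.38, 95% interval −1.24 to 0.36, limma adjusted p = 0.618). It ran from −0.27 without Pbrm1 cKO 1 to −0.72 without Pbrm1 cKO 2. The pooled fold was 19.5 in WT and 23.0 in Pbrm1 cKO.

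The start of the shorter Gja5 transcript, at 97032416, had no merged region. Entries within 1 kb of it were listed in 5 of 6 libraries, with 6 to 11 tags at the summit, and none in Pbrm1 cKO 3. Among the merged regions these entries would have stood at places 55063 to 66100. Of the 2 annotated starts of Gja5, one thus lay in the region shared with Gpr89, which had an entry in every library. The one of its own was close to the limit of the lists.

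Inside the gene, the intron region at chr3:97025043-97025750, 6666 bp before the shorter transcript's start, ranked 17016.5, 13302 and 13827 in WT and 20371.5, 18541 and 18579 in Pbrm1 cKO. All WT libraries stood above all Pbrm1 cKO libraries. The difference was −0.39 (SE 0.32, 95% interval −1.06 to 0.28, limma adjusted p = 0.594). The tags at the summit were 37, 36 and 24 in WT and 34, 32 and 33 in Pbrm1 cKO and did not separate.

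A coding exon of Gja5, exon 3 of the longer and exon 2 of the shorter transcript, carried another WT-only region, at chr3:97051282-97051856. Its ranks were 54311, 46258 and 47515 in WT and 56995.5, 57391 and 62893.5 in Pbrm1 cKO, again with all WT libraries above. It was among the weakest of the 20 regions, with 9 to 15 tags in WT and 9 to 14 in Pbrm1 cKO. The difference was −0.26 (SE 0.14, limma adjusted p = 0.377). The region entered the merged set through the WT list alone, so this comparison is not independent of that choice. The remaining regions of Gja5, an intron region and one in the last exon (3′ UTR), differed by 0.12 (limma adjusted p = 0.888) and −0.09 (limma adjusted p = 0.927).

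**Figure D3:**
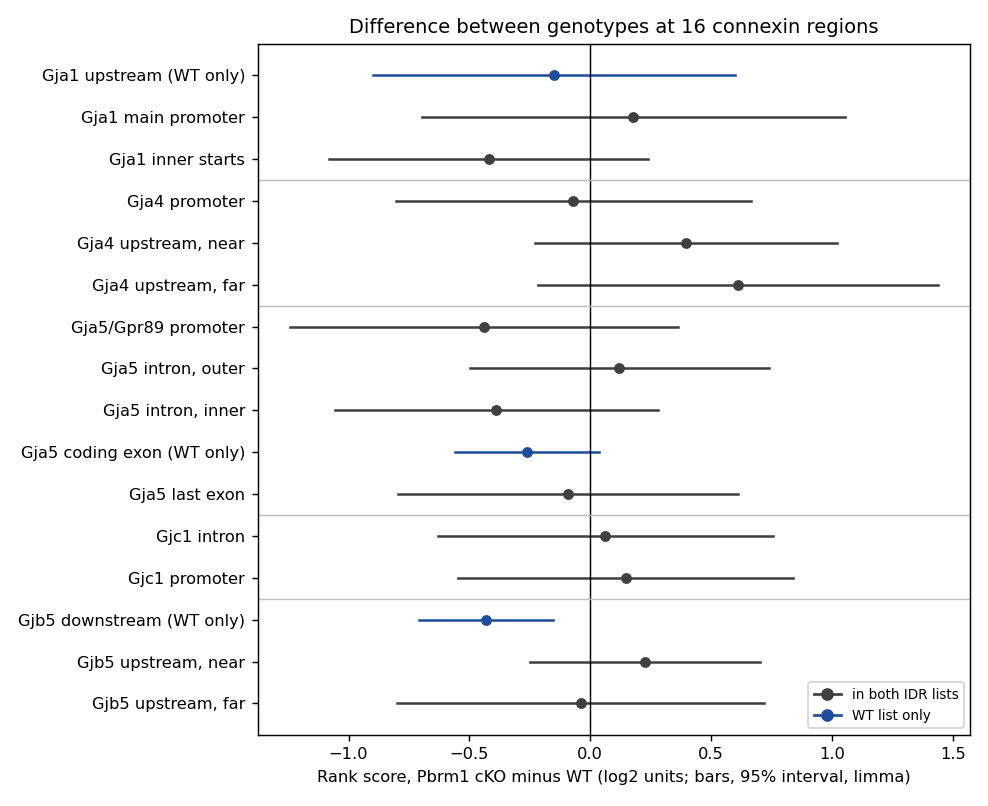
Difference in rank score (log2 units, Pbrm1 cKO minus WT) at each of 16 connexin regions, with points for the estimate and bars for the 95% interval of the limma fit. Black marks regions in both lists and blue those in the WT list only; the interval of the region downstream of Gjb5 (−0.71 to −0.15) is the only one that does not include 0, before adjustment.

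Gjb5, an epithelial connexin gene, had no merged region within 1 kb of its own start. Entries near that start were listed in 5 of 6 libraries, with 16 to 24 tags, and would have stood at places 45888 to 65628. Of the 5 regions of its window 3 are described here, so that these values are not the standing of the whole window.

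Of all 20 regions, the smallest p belonged to one that lay 8221 bp from the Gjb5 start, downstream of the gene in intergenic sequence at chr4:127349529-127349960. It was called in the WT list only, and the start of another gene lay nearer to it. It thus entered the merged set through the WT list alone. That choice favours better ranks in WT, and the test given here is not independent of it. The region ranked 44662.5, 57635.5 and 44958 in WT and 65173, 66448.5 and 65506 in Pbrm1 cKO, where it stood at the bottom of the list in each library. The summit held 28, 19 and 16 tags in WT, 13 and 11 in Pbrm1 cKO 1 and 3, and Pbrm1 cKO 2 had no entry, which says that the signal was below the threshold of that list and not that the DNA was closed. The rank score was 0.45 ± 0.21 in WT and 0.02 ± 0.01 in Pbrm1 cKO (SD, n = 3 each). At the bottom of the list the score has its floor, and the rank of Pbrm1 cKO 2 is the one shared by regions without an entry. The small SD in Pbrm1 cKO is therefore no measure of agreement between its libraries. The difference was −0.43 (SE 0.13, 95% interval −0.71 to −0.15, unadjusted p = 0.00436, limma adjusted p = 0.139), and it did not pass the test over all regions. When the ranks were turned into normal scores, which give more weight to the lower end of the list, it did (−1.61, limma adjusted p = 0.0206). Over the other alternatives that included it the limma adjusted p was 0.126 to 0.326, and the 2 region filters left it out.

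Of the 2 intergenic regions upstream of Gjb5, the nearer one (chr4:127368433-127368650) ranked 53321.5, 47895 and 50745 in WT and 52275, 52144 and 29780 in Pbrm1 cKO. Only Pbrm1 cKO 3 stood apart there, and the difference was 0.22 (SE 0.23, limma adjusted p = 0.678). The further one differed by −0.04 (SE 0.36, limma adjusted p = 0.974).

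Gjb2 and Gjb6, the epithelial connexins 26 and 30, had no reproducible region in either genotype. At the start of Gjb2 every library listed an entry, with 17, 11 and 13 tags in WT and 9, 15 and 13 in Pbrm1 cKO. These would have stood at places 52026, 62112 and 37541 in WT and 65152, 53043 and 57511 in Pbrm1 cKO among the 66679 merged regions. The groups overlapped, and the best place was that of WT 3, the library with the fewest tags over the connexin regions. At the 4 starts of Gjb6 only WT 3 listed an entry, of 7 tags. The other 5 libraries had no entry there, which says that any signal was below the threshold of their lists and not that the DNA was closed.

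By the best region of the window, taken in each library, the order of 6 genes (Gjb5 is not included) by median rank was Gja5 (7087, range 5189 to 10908.5), Gja4 (12127, 10334 to 21267.5), Gja1 (12872, 5980.5 to 16010), Gjc1 (20747, 15028.5 to 25335), Gjb2 (place 52535, 37541 to 61642) and Gjb6 (place 55277, 37541 to 64554). Each range overlapped that of its neighbour, except between Gjc1 and Gjb2. In WT 1, Pbrm1 cKO 1 and Pbrm1 cKO 3 the rank given for Gja4 was that of the further region upstream of it. The windows of Gjb2 and Gjb6 overlap, and in 4 of 6 libraries the place given for Gjb6 was that of the entry at the Gjb2 start. Ranks come from single summits and are not affected by gene length, but the window of Gja5, the longest at 212724 bp, had more room for a region.

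By regions within 1 kb of the genes' own starts Gja5 again came first (7087, the region shared with Gpr89), then Gja1 (12872), Gja4 (14427) and Gjc1 (26338). The ranges of neighbours in this order overlapped. Gjb2 (place 55277) and Gjb5 (place 60058, in 5 libraries) came after all of these, and no library placed the Gjb2 start as high as the lowest rank of the Gjc1 promoter (37541 against 35900.5). The promoter regions whose rank score over the 6 libraries was most like that of the Gja5 start were those of Tmed7 (root mean square difference 0.128), Zfp58 (0.140) and Fn1 (0.157), of 12796 protein-coding genes compared.

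Weaker accessible intervals were counted from the single-library lists, taking distinct intervals in each window. The median over all protein-coding windows was 9.67 in WT and 9.67 in Pbrm1 cKO. The Gja1 window held 14, 15 and 13 intervals in WT and 8, 12 and 9 in Pbrm1 cKO, or 14 ± 1 and 9.67 ± 2.08 (SD, n = 3 each). All WT libraries lay above all Pbrm1 cKO libraries, which was the case in 4.59% of all protein-coding windows, with the reverse in 3.58%. Among entries with a q of 0.05 or less the counts were 12, 12 and 9 in WT and 8, 10 and 8 in Pbrm1 cKO, and the groups overlapped. They also overlapped with a flank of 5 kb. With 3 against 3 libraries an exact permutation test cannot reach a p below 0.1, and none was run.

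In the Gja5 window the counts were 19, 24 and 38 in WT and 18, 20 and 13 in Pbrm1 cKO. WT 3 stood apart, and with a q of 0.05 or less it held 16, fewer than WT 1 and WT 2 with 18 and 22. The Gja4 window held 8 to 14 intervals in WT and 6 to 9 in Pbrm1 cKO, the Gjc1 window 9 to 11 and 7 to 10, and the Gjb5 window 10 to 13 and 9 to 11. The Gjb2 window had 8.67 ± 1.53 in both genotypes, and the Gjb6 window 7.33 ± 2.31 in WT and 6.67 ± 2.08 in Pbrm1 cKO (SD, n = 3 each). In all 6 windows other than that of Gja1 the groups overlapped.

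Over the 7 windows together, each interval counted once, there were 77, 79 and 97 intervals in WT and 62, 68 and 55 in Pbrm1 cKO, a difference of −22.7. All WT libraries lay above. How often sums over 7 windows of other genes separate in this way was not counted, so there is no share to read this against. The Gja5 window, where the groups overlapped, had the largest difference of the 7 (−10). WT 3 had the most intervals over the 7 windows, and without it the summed difference was −16.3. WT 3 also listed the most intervals genome-wide, 241237 against 201228 to 209436 in the other libraries. Among entries with a q of 0.05 or less the difference was −8.67 and the groups overlapped (71, 70 and 55 in WT, 62, 58 and 50 in Pbrm1 cKO), and the part of depth in this difference was not tested.

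**Figure D4:**
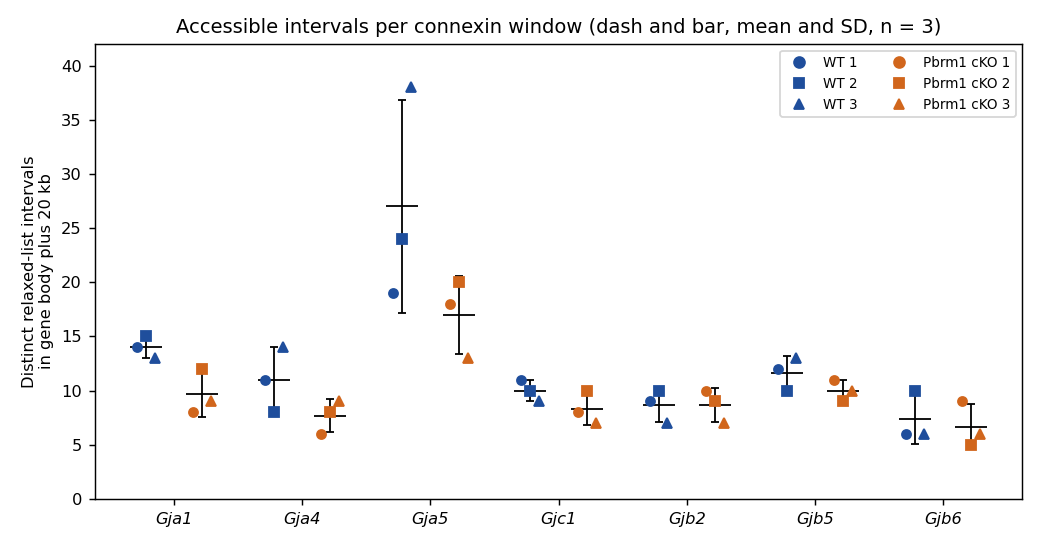
Number of distinct single-library intervals in each connexin window (gene body plus 20 kb), by library, with dashes and bars for the mean and SD of 3 libraries. The Gja1 window is the only one in which the WT libraries (13 to 15) do not overlap the Pbrm1 cKO libraries (8 to 12), and WT 3 stands apart at Gja5 with 38.

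The remaining genes of gap junctions were read from the same fit. The list held 20 genes, the other connexins, the pannexins, which form single-membrane channels, and partners such as Tjp1, whose product ZO-1 binds connexin 43. Their windows held 66 regions, of which 12 were also connexin regions counted above. Of the other 54 regions 0 passed the test, and 8 had an unadjusted p below 0.05 (15.9% of all regions do), of which 5 had a positive and 3 a negative difference.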

How the data were processed

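ATAC-seq was done on primary oviductal muscle cells from 3 WT and 3 Pbrm1 cKO mouse libraries, grouped by the sample labels. Per the study's methods the authors used the ENCODE ATAC-seq pipeline on GRCm38, and the submitters' processing notes name cutadapt, Bowtie2 and MACS2. For each library the authors deposited a relaxed peak list (p of 0.01, at most 300000 entries), and for each genotype 1 list of peaks kept at an irreproducible discovery rate (IDR) of 0.05. Its −log10 p was above that of every library of its genotype at 99.5% of WT and 99.6% of Pbrm1 cKO regions, and its values are called pooled on this ground, so that genotypes cannot be compared over replicates with these lists. How replicates were used in the IDR step is not given in the sources used here. Each deposited entry has a score, a fold enrichment over local background (a ratio), a −log10 p and a −log10 q, all by the authors' peak caller.

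The study's methods compared genotypes by a model of reads counted in merged peaks. Since no read counts were used here, regions were ranked within each list. The IDR lists were merged where they overlapped by at least 1 bp. limma 3.58.1 in R 4.3.3 (lmFit, eBayes with trend) took as input log2(number of regions / rank) of all merged regions, with Benjamini-Hochberg adjustment and a threshold of 0.05. p-values from limma cover the spread between the 3 libraries of a genotype, which per the study are biological replicates. The procedure was tested on simulated ranks, in which regions outside the weaker part of the list were moved by more than any connexin difference. That test does not show how well differences of the size reported here would be found. Genes and starts came from GENCODE M21, and a promoter region lies within 1 kb of a start. Tags per summit were recovered from fold and p, and 100% of 119 values at connexin regions were whole within a tolerance of 0.02 in −log10 p. Total reads per library are unknown here. Sequences came from the RefSeq assembly GRCm38.p6 and its promoter table.

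The members and gene lists were chosen with earlier results of these data known. By rule the text names the 7 genes, their promoter regions, the best region of each window, the 5 regions with the smallest p in each direction, all regions called in 1 genotype, and the 3 genes most like the best connexin promoter. As exceptions to this rule, the results of 4 regions in the windows (1 of them the region called in Pbrm1 cKO only), the best region of the Gjb5 window and single genes of the longer gap junction list are not reported here. The alternatives were normal scores, ranking by fold, 2 filters on regions, the replicate number as a block, each library left out, other window widths and overlaps, an IDR of 0.01 and a q of 0.05. The labels do not say whether same-numbered samples were paired, and the main comparison used no pairing. Correlations of same-numbered deviations were −0.0029, −0.055 and 0.0091, which shows no shared deviation but cannot tell how the samples were prepared.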

Additional observations from a re-analysis of the deposited data

How the results depend on the processing

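No connexin region passed the threshold under ranking by fold, the replicate block or any left-out library. None passed among the 19 with an entry in all 6 libraries or the 14 above the median by mean rank score. The region downstream of Gjb5 was in neither filtered set, so the 2 region filters could not call it. With normal scores 1 of the 20 regions was called lower in Pbrm1 cKO, this same region, which was in the WT list only. Of all 66679 regions, 26 were called higher and 19 lower in the main comparison, and 662 and 890 with normal scores. The counts were 4 and 0 with ranking by fold, and 66 and 65 with the replicate block. They were 21 and 10 among regions with an entry in all 6 libraries, and 40 and 24 among those above the median by mean rank score. With 1 library left out, 2 to 5 were called higher and 0 to 15 lower. Why the counts moved was not tested. Among the 66 regions in the windows of the other gap junction genes normal scores called 1 higher and 1 lower and the replicate block 1 higher, against 0 and 0. The replicate block changed no call at the connexin regions.

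Windows of 5 kb held 13 connexin regions in place of 20 (fewer bases were searched), and an IDR of 0.01 left 1 of the 3 WT-only regions, that upstream of Gja1, with 0 entries left at the other 2, and the count of Pbrm1 cKO-only regions stayed at 1. The summed interval difference of −22.7 was −8.67 at a q of 0.05 or less, where the groups overlapped. It was −16.7 with a flank of 5 kb, where they did not, and ran from −26.3 to −16.3 with 1 library left out. How often such sums separate for other genes was not counted.

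Of 171 differences of 16 connexin regions under alternatives 15 changed sign, in 8 regions. The Gja4 promoter was 0.13 with ranking by fold and −0.33 to 0.12 with 1 library left out. With 1 library left out, the Gja1 promoter ran from −0.22 to 0.52 and the region upstream of it from −0.43 to 0.24, the Gjc1 intron from −0.13 to 0.25 and the Gjc1 promoter from −0.061 to 0.36, the Gja5 last exon from −0.36 to 0.16, and the nearer and further regions upstream of Gjb5 from −0.045 to 0.36 and from −0.28 to 0.32.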
